A study of Homo sapiens with 9 samples.

Results

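Kinesins are motor proteins that walk along microtubules, and the genes described here are the 39 members of that family in a read count table of 26816 genes from OCI-Ly1 cells. Members were taken by symbol, as KIF followed by a number and an optional letter or a symbol that starts with KIFC, with antisense genes and pseudogenes left out. They were sorted by known role into 13 mitotic kinesins, 17 transport kinesins and 9 others, which work in cilia or have mixed or less settled roles. OCI-Ly1 is an established cell line grown from a human diffuse large B-cell lymphoma. Its polyadenylated RNA was sequenced in 9 libraries, with 3 for each of 3 groups: a scrambled, non-targeting control shRNA (shSCR) and 2 different shRNAs that target KDM1A, the gene of LSD1, for which the table's names sh68 and sh72 are kept. All groups carried an shRNA in the pLKO1 vector and were selected with puromycin, so the controls share vector and drug with the knockdown cells. LSD1 is an enzyme that takes methyl groups off lysines of histone H3, and the comparison asks which RNAs differ when it is depleted in these cells.

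The mitotic kinesins slide, cross-link or take apart microtubules of the spindle and carry cargo to the site where a dividing cell pinches off. In most cells their genes are switched on late in the cell cycle, in part through a short promoter element called the cell cycle genes homology region (CHR) and through CCAAT boxes bound by NF-Y. Most transport kinesins carry vesicles, mitochondria and other cargo towards the cell edge in both dividing and resting cells, many of them through light chains or adaptors.

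The libraries held 29506767 to 35270849 counted reads, of which kinesins took 0.166 to 0.187%. KDM1A RNA had 121, 119.9 and 123 CPM with shSCR, 23.4, 24.1 and 25.8 with sh68, and 19.1, 22.7 and 20.9 with sh72, where CPM is reads per 1000000 after scaling between libraries. Its log2 fold change (here and below ± SE from the fit) was -2.31 ± 0.054 (adjusted p = 2.76e-20) for sh68 and -2.54 ± 0.056 (adjusted p = 5.15e-20) for sh72, and all 6 knockdown libraries lay below the controls. Defining B-cell genes were read in every group, and the summed level of 7 such markers ran from 4792 to 4955 CPM in shSCR, from 4672 to 4812 with sh68 and from 3217 to 3403 with sh72. Markers of T cells, monocytes and fibroblasts summed to at most 3.22 CPM in any library. EPCAM made up nearly all of the epithelial markers (16.7 CPM in shSCR) and TUBB3 most of the neuronal ones (30.3 CPM).

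How strongly each kinesin was read in control cells was compared per kilobase of exon, since longer genes collect more reads. KIF5B, the widely expressed conventional kinesin heavy chain, stood highest of the family at 48.7 ± 0.972 CPM per kb (mean ± SD, n = 3). KIF2A, which takes apart microtubule ends in dividing and resting cells, followed at 38.7 ± 0.597, and KIF22, which pushes chromosome arms away from the spindle poles, at 31.7 ± 0.343. The means ± SD of these 3 did not overlap. Next came KIFC2 at 25.3 ± 1.64, KIF2C at 23.4 ± 0.425 and KIF11, the motor that pushes spindle poles apart, at 22.1 ± 0.485. The means ± SD of KIFC2 and KIF2C overlapped. FOXH1, on the opposite strand, covers 17.8% of the exon bases of KIFC2, and as the strand setting of the counting is not given, some of those reads may belong to it.

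The mitotic kinesins were read at similar and mostly high levels, while the transport kinesins spanned a wide range. The median level was 12.7 CPM per kb for the mitotic, 1.66 for the transport and 0.540 for the other kinesins. Of the 13 mitotic members, 11 had at least 5 CPM per kb, as did 5 of the 17 transport members and 2 of the 9 others. The cargo motors best known from neurons were among the lowest: KIF1A had 0.000637 CPM per kb, KIF17 0.0405 and KIF5A 0.281. KIF6, KIF25, KIF26A and KIF26B had 0 reads in all 3 control libraries, and with knockdown KIF6 had 0 to 5 reads and the others 0 or 1. With these totals, 6 members had too few reads to be tested for a change, namely KIF1A, KIF17 and the 4 just named.

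**Figure D1:**
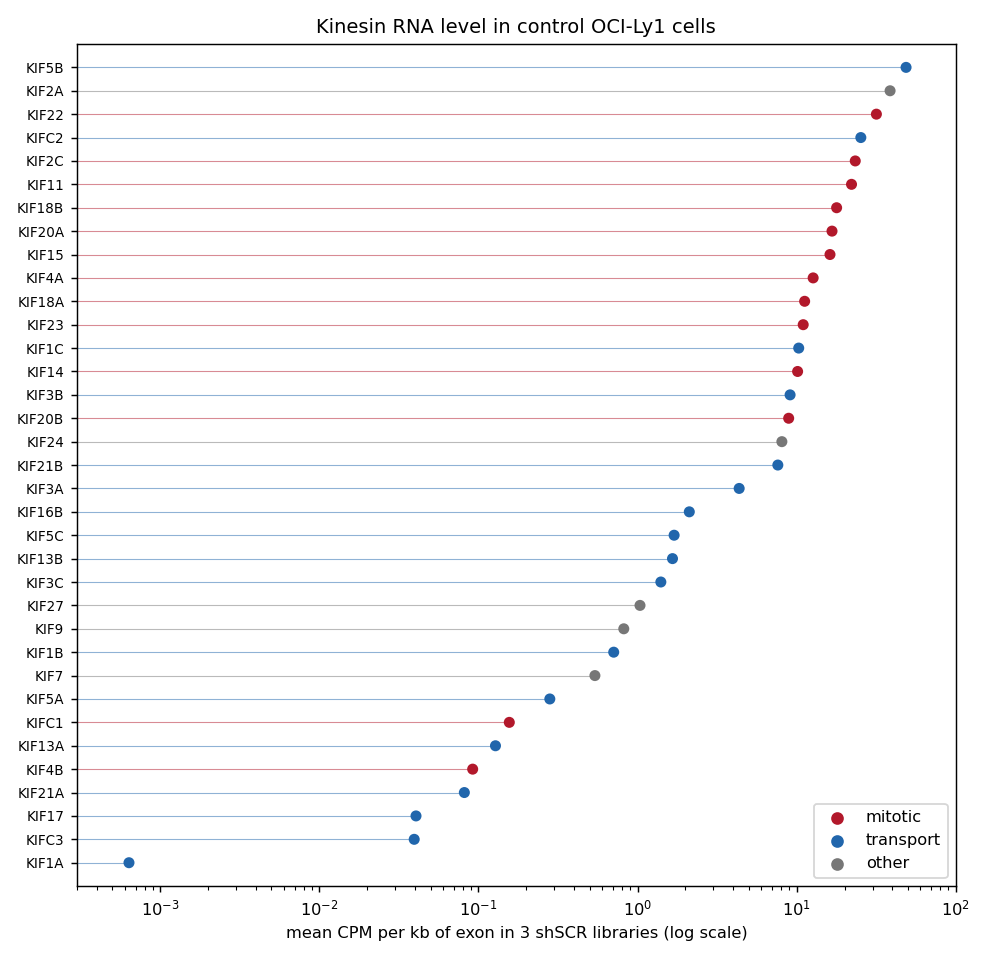
Mean level in the 3 shSCR libraries (CPM per kb of exon, log axis) of the 35 kinesins with at least 1 read there, coloured by class. KIF5B is highest at 48.7, and 11 of the 13 mitotic kinesins sit between 8.91 (KIF20B) and 31.7 (KIF22).

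The low counts of 2 mitotic kinesins have to be read beside those of other genes. KIFC1, a minus-end motor that focuses spindle poles, had 10 to 24 reads per library. The 11 neighbouring genes in the table from RPS18 to ZBTB9, on both sides of KIFC1 on chromosome 6, had 0 to 226 reads, and RPS18, which encodes a ribosomal protein, had 19 to 47. Before that stretch, VPS52 had 35 to 54 reads and RING1 0 or 1. After it, BAK1 had 762 to 1061 reads, ITPR3 10848 to 15226, UQCC2 727 to 1143 and LEMD2 1115 to 1363, while IP6K3 had 0 to 15 and MLN and GRM4 0 or 1. Whether the low count of KIFC1, shared by these neighbours, shows its RNA level was not tested. KIF4B, a gene without introns that closely resembles KIF4A, had 7 to 23 reads, and 14.0% of its 50-base words also occur in KIF4A transcripts.

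Promoter windows, from 250 bases before to 50 after a start site in RefSeq (GRCh38.p14), were found for 32 of the 39 members. Only 1 window per gene was used, that of the most upstream start site among its windows. For KIFC1, KIF7 and KIF24 that start site lay inside the gene's RefSeq span and not at its outer end. Positions of motifs count from the start site of the window. The windows were searched on both strands for the CHR (TTTGAA) and for CCAAT, and the search let the motifs overlap. A CHR lay in 10 of 13 mitotic windows (76.9%), in 1 of 12 transport windows (8.33%), in 0 of 7 others and in 15.5% of all 27326 windows. CCAAT lay in 84.6% of mitotic, 33.3% of transport, 28.6% of other and 35.7% of all windows, and both motifs in 69.2%, 8.33%, 0% and 6.13%. The mitotic CHRs started between 55 bases before and 31 bases after the start site. A match is a run of letters and not a shown binding site.

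**Figure D2:**
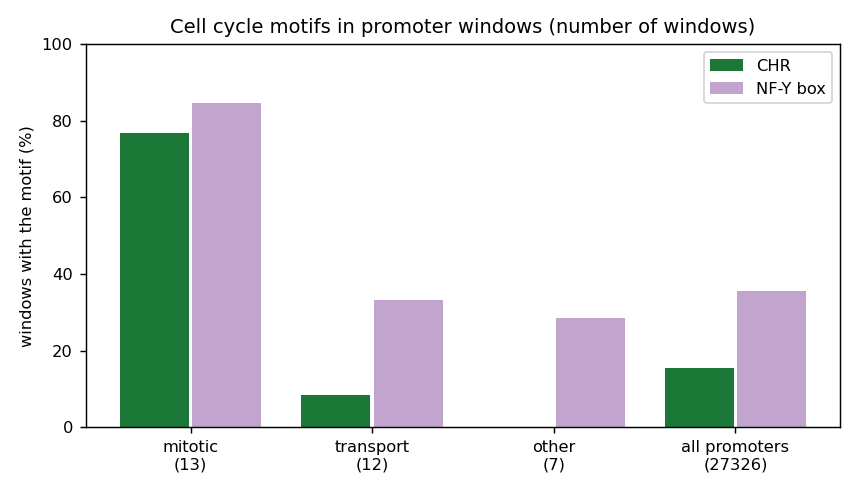
Share of promoter windows with a CHR (TTTGAA, green) or an NF-Y box (CCAAT, lilac) in each kinesin class and in all windows, with the number of windows under each pair of bars. The mitotic class stands at 76.9% and 84.6%, against 15.5% and 35.7% of all windows.

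The 30 bases around the CHR follow for 9 of the 10 mitotic kinesins with a match, KIFC1 left out, and for KIF5B, the 1 transport kinesin with one. The 6 letters of the motif are alike by the search itself, so only the bases around it can differ. Each is read along the strand on which TTTGAA lies, from RefSeq on GRCh38.p14, with the motif in capitals.
KIF4A (chrX:70290058-70290087, plus strand): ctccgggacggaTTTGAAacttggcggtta
KIF4B (chr5:155013746-155013775, plus strand): ctctgggagggaTTTGAAacttggcggtta
KIF23 (chr15:69414282-69414311, plus strand): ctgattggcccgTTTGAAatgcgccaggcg
KIF15 (chr3:44761747-44761776, minus strand): gatggccgcaaaTTTGAAtttggcgcttgg
KIF11 (chr10:92593090-92593119, minus strand): tcggcgcctcaaTTTGAAaaagagacagag
KIF14 (chr1:200620733-200620762, plus strand): agaaggccgcaaTTTGAAtgggcgccccgc
KIF18A (chr11:28108149-28108178, minus strand): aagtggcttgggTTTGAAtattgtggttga
KIF18B (chr17:44947754-44947783, minus strand): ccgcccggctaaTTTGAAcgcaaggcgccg
KIF20B (chr10:89701602-89701631, plus strand): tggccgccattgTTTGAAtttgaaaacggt
KIF5B (chr10:32056548-32056577, minus strand): agtgcagtaaaaTTTGAAtctgcgaccccg
The sites of KIF4A and KIF4B differ at 2 of 30 bases. In KIF20B the motif stands 2 times in tandem, with the copy after the capitals in lower case. The KIF5B match starts 140 bases before its start site, farther away than any mitotic one.

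Longer stretches before the start are shown for KIF4A, which has both motifs, for KIF2C, which has neither, and for KIF5C, the transport kinesin whose RNA was higher with each shRNA (described further on). Capitals mark CHR and CCAAT on either strand.
KIF4A (chrX:70289980-70290089, plus strand): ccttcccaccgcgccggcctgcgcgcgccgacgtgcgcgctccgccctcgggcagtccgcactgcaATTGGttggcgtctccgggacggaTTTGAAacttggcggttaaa
KIF2C (chr1:44739668-44739817, plus strand): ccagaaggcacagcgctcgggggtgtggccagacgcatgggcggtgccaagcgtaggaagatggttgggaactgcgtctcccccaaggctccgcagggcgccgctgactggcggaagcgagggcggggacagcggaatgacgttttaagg
KIF5C (chr2:148875077-148875226, plus strand): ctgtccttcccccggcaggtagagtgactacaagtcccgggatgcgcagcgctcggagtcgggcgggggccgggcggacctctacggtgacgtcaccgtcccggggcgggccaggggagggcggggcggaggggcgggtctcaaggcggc
KIF4A holds ATTGG, which is CCAAT on the opposite strand, and then a CHR. The windows of KIF2C, KIF20A and KIF22 hold no TTTGAA on either strand, and that of KIF2C holds no CCAAT either. Other forms of the CHR were not searched for. The KIF5C window holds no TTTGAA, and its CCAAT lies on the opposite strand at -222 from the start, outside the stretch shown.

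Of the 33 kinesins tested, 12 were lower and 2 higher in the mean effect of sh68 and sh72 over shSCR (edgeR quasi-likelihood test, adjusted p below 0.05). In all 15725 genes tested, 52.3% were called, 27.5% lower and 24.9% higher, so change was common in these cells. With sh68 alone, 10 kinesins were lower and 7 higher, beside 28.1% and 27.4% of all genes (55.5% called). With sh72 alone, 17 were lower and only KIF5C was higher, beside 26.3% and 24.7% of all genes (51% called). Scaling by library size alone left the counts of lower members at 12 for the mean and 17 for sh72 and raised those of higher members to 4 and 4. For sh68 that scaling gave 8 lower and 7 higher members. Both single comparisons share the 3 control libraries. The p-values measure the spread between these libraries, which the labels call biological triplicates.

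**Figure D3:**
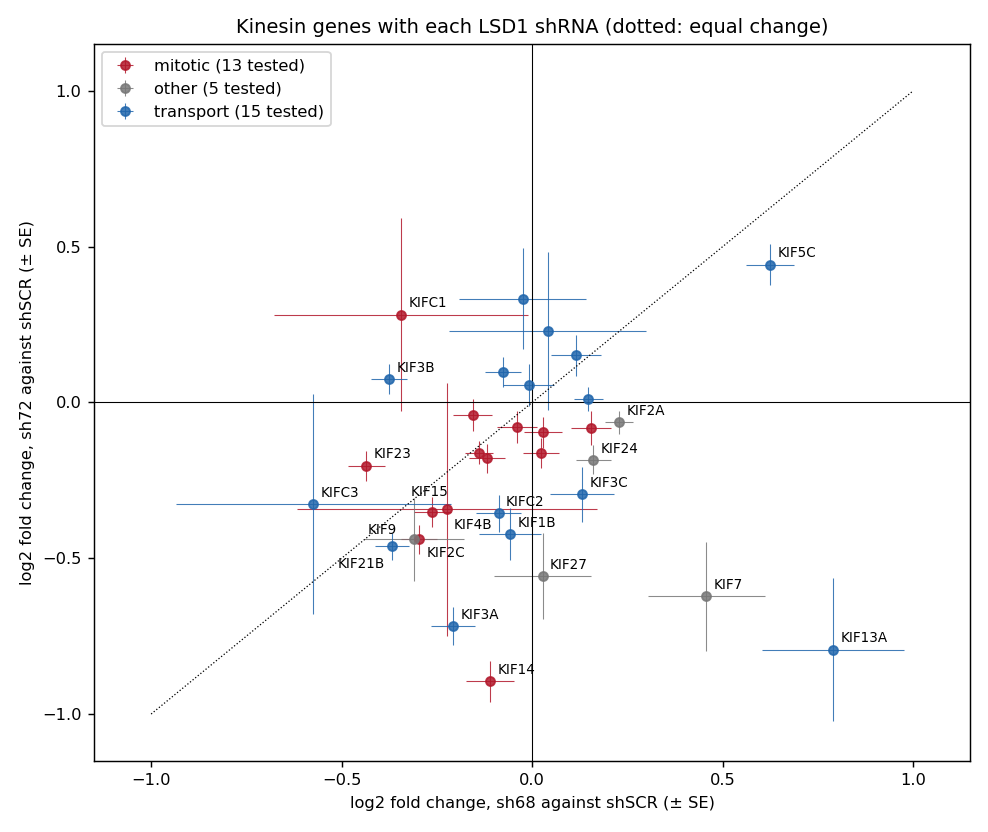
Log2 fold change against shSCR with sh68 (horizontal) and with sh72 (vertical) for the 33 tested kinesins, with bars of ± 1 SE and colours for the class; all points share the same control libraries. KIF5C lies farthest to the upper right, KIF13A and KIF7 lie at the lower right, and 12 of 13 mitotic kinesins lie below 0 for sh72.

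Among the mitotic kinesins, 6 of 13 were lower on the mean and 0 were higher: KIF2C, KIF14, KIF15, KIF22, KIF23 and KIF4A. That is 46.2%, beside 27.5% of all genes, and the median log2 fold change of the class was -0.15, beside -0.015 over all genes. With 0 higher, the share called in either direction was also 46.2%, beside 52.3% of all genes. All genes tested include ones with few reads and wide SEs, so their shares are not matched for level. The SE on the mean was 0.032 for KIF22 and 0.35 for KIF4B. With sh68, 6 were lower (46.2%, beside 28.1% of all genes) and KIF18A was higher, with a median of -0.14. With sh72, 7 were lower (53.8%, beside 26.3% of all genes) and 0 higher, with a median of -0.16.

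KIF2C, which depolymerises microtubules at chromosome attachments, had 85.4, 83.5 and 86.6 CPM with shSCR, 65.0, 72.1 and 70.8 with sh68, and 64.9, 60.1 and 63.4 with sh72. Every knockdown library lay below every control library. The log2 fold change was -0.30 ± 0.046 (adjusted p = 7.66e-06) with sh68 and -0.44 ± 0.047 (adjusted p = 3.07e-08) with sh72. KIF15, which works beside KIF11 in keeping the spindle bipolar, had 86.0, 82.9 and 88.0 CPM with shSCR, 66.1, 76.7 and 71.3 with sh68, and 69.0, 67.0 and 65.3 with sh72. Its groups did not overlap with the controls either, and its log2 fold change was -0.26 ± 0.049 (adjusted p = 7.58e-05) with sh68 and -0.35 ± 0.049 (adjusted p = 2.07e-06) with sh72.

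KIF23, the motor of the centralspindlin complex that organises the midzone in cytokinesis, was lower with sh68 than with sh72. Its libraries read 70.1, 70.8 and 76.0 CPM with shSCR, 51.1, 55.6 and 53.6 with sh68, and 63.0, 59.99 and 65.5 with sh72. On the log2 scale it changed by -0.44 ± 0.049 (adjusted p = 5.96e-08) with sh68 and -0.20 ± 0.048 (adjusted p = 0.00112) with sh72, and sh72 minus sh68 gave 0.23 ± 0.049 (adjusted p = 0.000272). All 3 sh68 libraries lay below all sh72 libraries, and those below the controls.

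KIF22 and KIF4A changed least among the mitotic genes that passed with each shRNA. KIF22 had 138, 137 and 135 CPM with shSCR, 125, 126 and 122 with sh68, and 126, 121 and 120.4 with sh72, a log2 fold change of -0.14 ± 0.037 (adjusted p = 0.00281) with sh68 and -0.16 ± 0.037 (adjusted p = 0.000837) with sh72. KIF4A, a chromosome-bound motor that shortens the central spindle, had 56.5, 57.5 and 58.7 CPM with shSCR, 52.4, 53.5 and 53.2 with sh68, and 53.3, 48.2 and 51.0 with sh72. Its log2 fold change was -0.12 ± 0.047 (adjusted p = 0.0345) with sh68 and -0.18 ± 0.047 (adjusted p = 0.00257) with sh72. The sh68 call of KIF4A ended without any single shSCR or sh68 library and without sh72 replicate 3 (adjusted p from 0.0508 to 0.129), and also under DESeq2, scaling by library size alone, no filter or a filter of 1 CPM in 3 libraries (adjusted p from 0.0545 to 0.0913). Its sh72 call ended without sh72 replicate 2 (log2 fold change -0.12, adjusted p = 0.0525).

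KIF14, a motor of cytokinesis that works with citron kinase at the midbody, had the largest fall of the mitotic kinesins with sh72. Its libraries read 73.8, 69.2 and 78.4 CPM with shSCR, 64.9, 70.0 and 70.3 with sh68, and 37.1, 36.5 and 45.7 with sh72. The sh68 and control libraries overlapped (log2 fold change -0.11 ± 0.063 (adjusted p = 0.142)), while the sh72 libraries lay far below both. With sh72 its fold change on the log2 scale was -0.90 ± 0.066 (adjusted p = 6.59e-11), and sh72 minus sh68 gave -0.79 ± 0.066 (adjusted p = 4.17e-10).

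KIF20A, the cytokinesis motor MKLP2, had 63.5, 66.0 and 68.6 CPM with shSCR, 63.7, 70.4 and 67.2 with sh68, and 60.1, 56.9 and 59.96 with sh72. KIF20A was lower with sh72 at -0.16 ± 0.048 (adjusted p = 0.00648), had 0.024 ± 0.047 (adjusted p = 0.694) with sh68, and differed by -0.19 ± 0.048 (adjusted p = 0.00179) between them. The sh72 call ended without shSCR replicate 3 (adjusted p = 0.0586) or without sh72 replicate 2 (adjusted p = 0.0754). KIF20B, which also acts in cytokinesis, was lower with sh68 at -0.16 ± 0.051 (adjusted p = 0.0128) and had -0.04 ± 0.051 (adjusted p = 0.536) with sh72. Its sh72 minus sh68 missed the threshold at 0.12 ± 0.051 (adjusted p = 0.06). The sh68 call ended without sh68 replicate 1 (-0.10, adjusted p = 0.115).

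KIF18A, which damps chromosome movements at the metaphase plate, had 53.2, 54.2 and 49.8 CPM with shSCR, 53.8, 60.8 and 60.2 with sh68, and 49.9, 47.4 and 51.2 with sh72. It was higher with sh68 at 0.15 ± 0.053 (adjusted p = 0.0161) and had -0.082 ± 0.054 (adjusted p = 0.209) with sh72. The sh68 call ended without shSCR replicate 3, sh68 replicate 2 or sh68 replicate 3 (adjusted p from 0.0590 to 0.0798). KIF11 had 108, 109 and 105 CPM with shSCR, 101, 117 and 111 with sh68, and 106, 93.3 and 103 with sh72, with overlapping groups throughout. It had 0.029 ± 0.05 (adjusted p = 0.642) with sh68 and -0.10 ± 0.05 (adjusted p = 0.117) with sh72, and its difference of sh72 minus sh68 passed at -0.13 ± 0.05 (adjusted p = 0.0365). Without sh68 replicate 2 that difference was -0.077 and without sh72 replicate 2 it was -0.065 (adjusted p = 0.243 and 0.318), and it also missed the threshold without shSCR replicate 1, shSCR replicate 2, sh68 replicate 3 or sh72 replicate 3 (adjusted p from 0.0501 to 0.0964), and with RLE scaling, DESeq2 or only the groups compared (adjusted p from 0.0567 to 0.0891). KIF18B, a partner of KIF2C at microtubule ends, had -0.06 ± 0.045 (adjusted p = 0.269) on the mean and no call in any comparison, as had KIFC1 and KIF4B. KIF18B was called on the mean and with sh72 when sh72 replicate 1 was left out.

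**Figure D4:**
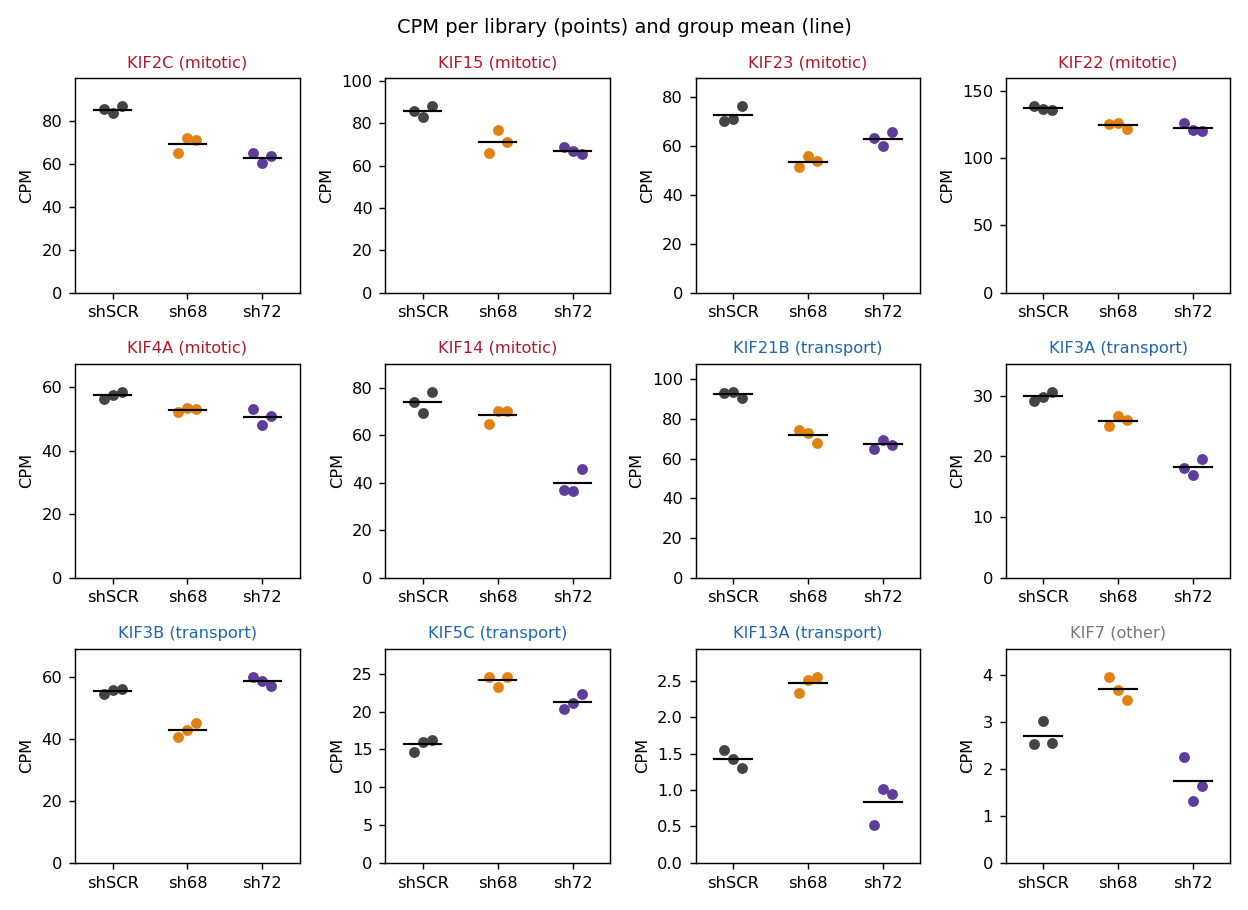
CPM in each of the 9 libraries (points, axes from 0) with the group mean (line) for 12 kinesins, titled by gene and class. KIF2C, KIF15, KIF23, KIF22 and KIF4A are lower in all 6 knockdown libraries, KIF14 is lower with sh72, and KIF13A and KIF7 are higher with sh68 and lower with sh72.

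Summed over the class, mitotic kinesin RNA was 882 ± 12.8 CPM with shSCR, 811 ± 32.1 with sh68 and 754 ± 28.96 with sh72 (mean ± SD, n = 3). The control libraries ran from 871 to 896 and the knockdown libraries from 721 to 843, with no overlap. Transport kinesins summed to 742 ± 5.15, 735 ± 10.9 and 695 ± 12.2, and the sh72 libraries (681 to 703) lay below all controls (736 to 746) while those of sh68 (722 to 742) overlapped them. The others summed to 247 ± 3.11, 285 ± 6.28 and 229 ± 5.19, higher in every sh68 library and lower in every sh72 library. Such sums rest mostly on the genes with the most reads. KIF2A alone had 185 CPM with shSCR, 216 with sh68 and 177 with sh72. In the transport sum, KIF5B had 286, 317 and 288, KIFC2, with the overlap with FOXH1, 113, 106 and 88.0, and KIF21B 92.6, 71.8 and 67.2. With sh72, 8 of the 15 tested transport kinesins had a positive and 7 a negative log2 fold change. In bulk RNA, fewer cells in mitosis and less RNA per cell cannot be told apart.

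**Figure D5:**
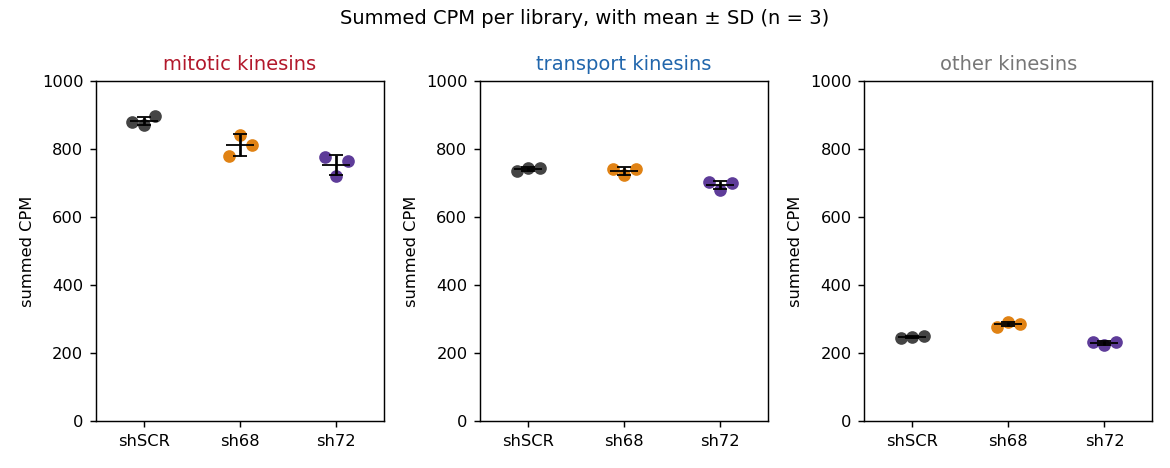
Summed CPM of each kinesin class in every library (points) with mean ± SD (n = 3), axes from 0. Mitotic sums of all 6 knockdown libraries lie below the controls, transport sums do so with sh72, and the sums of the other class are higher with sh68 and lower with sh72. KIF2A makes up most of the sums of the other class, and KIF5B is the largest part of the transport sums.

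Genes of cell division outside the family were measured beside the mitotic kinesins, with levels given as mean ± SD (n = 3). Of 22 genes of G2 and mitosis, 16 were lower and 1 higher on the mean (median -0.15), 17 and 0 with sh68, and 10 and 3 with sh72. That is 72.7% lower on the mean, 77.3% with sh68 and 45.5% with sh72, beside 27.5%, 28.1% and 26.3% of all genes. Their summed level ran from 4030.5 to 4099 CPM with shSCR, 3329 to 3707 with sh68 and 3499.9 to 3790.1 with sh72, so that no knockdown library reached the controls. MKI67 and TOP2A, both read strongly, weigh much in these sums. MKI67 had 881 CPM with shSCR, 768 with sh68 and 750 with sh72, and TOP2A 765, 669 and 638. ANLN, which builds the cleavage furrow, fell, at 148 ± 2.46 CPM with shSCR, 110.0 ± 7.22 with sh68 and 89.1 ± 2.46 with sh72 (-0.58 ± 0.037 (adjusted p = 5.45e-12) on the mean), and NEK2, a centrosome kinase, fell too, at 44.4 ± 0.469 CPM with shSCR, 36.7 ± 3.40 with sh68 and 25.01 ± 2.04 with sh72 (-0.55 ± 0.054 (adjusted p = 9.04e-09)). Of 20 genes of G1/S and DNA replication, 11 were higher and 2 lower on the mean (median 0.12), 13 and 1 with sh68, and 8 and 4 with sh72. The shares that were higher, 55%, 65% and 40%, stood beside 24.9%, 27.4% and 24.7% of all genes. Their sums ran from 4587 to 4809 CPM with shSCR, 5276 to 5343 with sh68 and 4636 to 5039.9 with sh72, apart from the controls with sh68 and overlapping them with sh72. GINS2, part of the replicative helicase, rose at 0.40 ± 0.037 (adjusted p = 2.36e-09) and CDC6, which licenses origins, at 0.35 ± 0.035 (adjusted p = 1.199e-08). The part of these cell cycle genes in the mitotic kinesin result was not tested.

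Partners and regulators of the mitotic kinesins, some of which also stand in the list of G2 and mitosis, were 13 lower and 2 higher of 22 on the mean (median -0.11), 14 and 2 with sh68, and 5 and 5 with sh72. The shares that were lower were 59.1% and 63.6% on the mean and with sh68, beside 27.5% and 28.1% of all genes, and with sh72 22.7% were lower and 22.7% higher, close to the 26.3% and 24.7% of all genes. INCENP, the scaffold of the Aurora B complex, fell, at 138 ± 4.10 CPM with shSCR, 107 ± 3.51 with sh68 and 113 ± 7.25 with sh72 (-0.33 ± 0.038 (adjusted p = 1.21e-07)), and GTSE1, which restrains KIF2C, did so at 120.0 ± 1.64 CPM with shSCR, 103 ± 4.81 with sh68 and 88.5 ± 4.14 with sh72 (-0.33 ± 0.037 (adjusted p = 8.63e-08)). A pair of partners chosen after their values were seen went different ways. RACGAP1, the subunit that pairs with KIF23 in centralspindlin, fell at -0.16 ± 0.042 (adjusted p = 0.00289) with sh68 and -0.32 ± 0.043 (adjusted p = 8.65e-07) with sh72, while PRC1, which brings KIF4A to the midzone, rose at 0.26 ± 0.041 (adjusted p = 1.10e-05) and 0.28 ± 0.042 (adjusted p = 4.18e-06).

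Of 13 factors known to act on CHR and CCAAT promoters or on cell cycle genes, 4 were higher and 4 lower on the mean, 30.8% each way, close to the 24.9% and 27.5% of all genes. MYBL2, an activator of late cell cycle genes, rose, at 269 ± 2.86 CPM with shSCR, 332 ± 3.05 with sh68 and 333 ± 33.2 with sh72 (0.31 ± 0.042 (adjusted p = 1.66e-06)). FOXM1, another activator, had 87.0 ± 2.52 CPM with shSCR, 80.1 ± 1.63 with sh68 and 93.1 ± 7.45 with sh72 (-0.011 ± 0.042 (adjusted p = 0.839)). LIN37, a subunit of the repressor complex that binds CHRs, fell at -0.37 ± 0.078 (adjusted p = 0.000295), and NFYA, a subunit of NF-Y, at -0.35 ± 0.037 (adjusted p = 2.38e-08).

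Transport kinesins moved both ways, and the sign of their median changed with the scaling. On the mean, 5 of 15 tested were lower and 1 higher (33.3% and 6.67%), beside 27.5% and 24.9% of all genes, with a median log2 fold change of -0.0017 that was 0.032 with library size alone. With sh68, 3 were lower and 3 higher, 20% each way beside 28.1% and 27.4% of all genes. The sh68 median was -0.025, and 0.0026 with library size alone. With sh72, 6 were lower and 1 higher (40% and 6.67%), beside 26.3% and 24.7% of all genes, with a median of 0.010. With 1 library left out, the sh68 median ran from -0.060 to 0.017 and the sh72 median from -0.0059 to 0.050, and other alternatives gave -0.038 to 0.049 for sh72.

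KIF5A, KIF5B and KIF5C are the heavy chains of conventional kinesin. KIF5C, of neurons and some other cells, had 14.7, 16.03 and 16.2 CPM with shSCR, 24.5, 23.2 and 24.6 with sh68, and 20.3, 21.2 and 22.3 with sh72. Of 4 neuronal markers, MAP2 was higher with each shRNA, at 1.44 ± 0.11 and 1.45 ± 0.12, TUBB3 was lower with each, SYP was lower with sh72 and RBFOX3 had too few reads to test. They summed to 31.9 to 37.3 CPM with shSCR, 28.6 to 28.99 with sh68 and 23.0 to 31.1 with sh72, most of it TUBB3, and their part in the KIF5C result was not tested. KIF5C was the 1 kinesin with all 6 knockdown libraries above the controls, as were 14.6% of all genes, with a log2 fold change of 0.62 ± 0.064 (adjusted p = 1.36e-08) with sh68 and 0.44 ± 0.065 (adjusted p = 4.00e-06) with sh72. The difference of sh72 minus sh68, -0.18 ± 0.061 (adjusted p = 0.0137), ended without sh68 replicate 3 (adjusted p = 0.0559) or sh72 replicate 1 (adjusted p = 0.0607). KIF5B, at 48.7 CPM per kb in controls against 1.70 for KIF5C, had 280.1, 291 and 288 CPM with shSCR, 309, 320.1 and 322 with sh68, and 294, 273 and 298 with sh72. It was higher with sh68 at 0.15 ± 0.038 (adjusted p = 0.00219) and overlapped the controls with sh72 at 0.01 ± 0.038 (adjusted p = 0.846). The difference, -0.14 ± 0.038 (adjusted p = 0.00375), was -0.091 without sh72 replicate 2 (adjusted p = 0.0663). KIF5A, at 1.68 to 2.39 CPM in the 9 libraries, had 0.15 ± 0.14 (adjusted p = 0.384) on the mean.

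The motor subunits of heterotrimeric kinesin, which drives transport along cilia and of vesicles, differed between the shRNAs, and in opposite directions for KIF3A and KIF3B. KIF3A, a motor subunit, had 29.2, 29.7 and 30.7 CPM with shSCR, 24.99, 26.6 and 26.01 with sh68, and 18.0, 16.9 and 19.5 with sh72. It was lower with each shRNA, at -0.21 ± 0.058 (adjusted p = 0.00406) with sh68 and -0.72 ± 0.061 (adjusted p = 7.02e-10) with sh72, and lower with sh72 than with sh68 by -0.51 ± 0.061 (adjusted p = 1.43e-07). KIF3B, its partner motor, had 54.6, 55.8 and 56.2 CPM with shSCR, 40.6, 42.8 and 45.0 with sh68, and 60.01, 58.5 and 56.9 with sh72. It was lower with sh68, at -0.38 ± 0.048 (adjusted p = 5.01e-07), and had 0.075 ± 0.047 (adjusted p = 0.192) with sh72, where all 3 libraries lay slightly above the controls. For sh72 minus sh68 it had 0.45 ± 0.048 (adjusted p = 2.25e-08), of opposite sign to that of KIF3A. KIF3C, an alternative partner, had 9.37, 9.07 and 8.48 CPM with shSCR, 9.80, 9.23 and 10.4 with sh68, and 7.73, 7.04 and 7.15 with sh72. It was lower with sh72 at -0.29 ± 0.088 (adjusted p = 0.00724), had 0.13 ± 0.084 (adjusted p = 0.195) with sh68 and differed between them by -0.43 ± 0.086 (adjusted p = 0.000178). Its sh72 call ended without shSCR replicate 1 (-0.25, adjusted p = 0.0502). KIFAP3, the non-motor subunit that holds the complex to cargo, fell with each shRNA, at 30.4 ± 1.19 CPM with shSCR, 23.2 ± 1.02 with sh68 and 21.0 ± 1.09 with sh72, with log2 fold changes of -0.39 ± 0.058 (adjusted p = 5.09e-06) and -0.54 ± 0.06 (adjusted p = 6.47e-08).

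KIF21B, a motor that also slows microtubule growth, had 93.2, 93.9 and 90.6 CPM with shSCR, 74.6, 72.9 and 67.9 with sh68, and 65.1, 69.4 and 67.0 with sh72. All 6 knockdown libraries lay below the controls, and the log2 fold change was -0.37 ± 0.044 (adjusted p = 1.94e-07) with sh68 and -0.46 ± 0.045 (adjusted p = 6.42e-09) with sh72. Across all genes, 15.3% had their 6 knockdown libraries below the controls, and 8 kinesins did: KIF2C, KIF15, KIF23, KIF22, KIF4A, KIF21B, KIF3A and KIF9. Its paralog KIF21A was read at 0.588 to 1.17 CPM and had 0.13 ± 0.22 (adjusted p = 0.64) on the mean.

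Among the carriers of vesicles and endosomes of the KIF1 and KIF13 type, KIF13A, KIF1B and KIF1C differed between the shRNAs. KIF13A, which moves recycling endosomes, rose with sh68 and fell with sh72: its libraries read 1.55, 1.42 and 1.31 CPM with shSCR, 2.33, 2.51 and 2.56 with sh68, and 0.525, 1.01 and 0.951 with sh72. The groups did not overlap in either direction, with 0.79 ± 0.19 (adjusted p = 0.000884) for sh68, -0.79 ± 0.23 (adjusted p = 0.0055) for sh72 and -1.58 ± 0.20 (adjusted p = 4.98e-07) for the difference. The sh72 call ended without sh72 replicate 1 (-0.54, adjusted p = 0.0530). KIF1B, which carries mitochondria and vesicles, had 11.9, 13.3 and 12.4 CPM with shSCR, 12.8, 10.97 and 12.4 with sh68, and 8.66, 9.86 and 9.61 with sh72. KIF1B was lower with sh72 at -0.42 ± 0.084 (adjusted p = 0.000187), had -0.058 ± 0.081 (adjusted p = 0.566) with sh68, and differed by -0.36 ± 0.083 (adjusted p = 0.000666). Its call on the mean, -0.24 ± 0.071 (adjusted p = 0.00671), ended without shSCR replicate 2 (-0.19, adjusted p = 0.0691). KIF1C had 89.5, 91.1 and 84.7 CPM with shSCR, 86.4, 82.6 and 82.5 with sh68, and 102, 89.6 and 92.5 with sh72. It passed in neither single comparison, at -0.077 ± 0.047 (adjusted p = 0.169) and 0.10 ± 0.047 (adjusted p = 0.0879), and sh72 minus sh68 gave 0.17 ± 0.047 (adjusted p = 0.0027).

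KIFC2, a minus-end motor best known from axons, had 115, 104 and 119 CPM with shSCR, 116, 94.0 and 109 with sh68, and 84.1, 93.2 and 86.8 with sh72. KIFC2 was lower with sh72 at -0.36 ± 0.06 (adjusted p = 2.45e-05), had -0.088 ± 0.059 (adjusted p = 0.216) with sh68 and differed by -0.27 ± 0.06 (adjusted p = 0.000494), with the overlap with FOXH1 given above. KIF13B, KIF16B and KIFC3 showed no call in any comparison, but KIF13B was near the threshold (adjusted p = 0.0554 on the mean and 0.0578 with sh72) and was called higher under 8 of 18 alternatives on the mean and 11 of 17 with sh72, among them RLE scaling, library size alone, a filter of 1 CPM in 3 libraries and the replicate block. Their log2 fold changes on the mean were 0.13 ± 0.057, 0.024 ± 0.058 and -0.45 ± 0.31, the last from 8 to 12 reads per library.

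The other kinesins, 5 of which were tested, differed between the shRNAs in every case but KIF9. With sh68, KIF2A, KIF7 and KIF24 were higher and KIF9 lower, and with sh72, KIF7, KIF9, KIF24 and KIF27 were lower. That is 60% higher and 20% lower with sh68, beside 27.4% and 28.1% of all genes. With sh72 80% were lower, beside 26.3% of all genes. For the difference 80% were lower, beside 29% of all genes, in a class of only 5 tested. KIF2A had 181, 186 and 187 CPM with shSCR, 211, 219 and 219 with sh68, and 178, 172 and 180.0 with sh72. It was higher with sh68 at 0.23 ± 0.036 (adjusted p = 1.02e-05) and had -0.064 ± 0.036 (adjusted p = 0.148) with sh72, and the difference was -0.29 ± 0.036 (adjusted p = 2.55e-07). Its call on the mean, 0.082 ± 0.031 (adjusted p = 0.0327), ended without shSCR replicate 1 (adjusted p = 0.0939) or with no filter on low counts (adjusted p = 0.0538). Exons of IPO11 cover 8.97% of its exon bases on the same strand.

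KIF7, a cilium tip motor of the Hedgehog pathway, and KIF24, which holds back cilium formation in cycling cells, both rose with sh68 and fell with sh72. With KIF13A, these were the 3 kinesins called in opposite directions by the 2 shRNAs, 9.09% of those tested. Among all genes, 7.83% were called in opposite directions, and 4.32% were higher with sh68 and lower with sh72. KIF7 had 2.54, 3.01 and 2.55 CPM with shSCR, 3.96, 3.67 and 3.46 with sh68, and 2.25, 1.33 and 1.64 with sh72. The groups stayed apart, with 0.46 ± 0.15 (adjusted p = 0.0144) for sh68, -0.62 ± 0.18 (adjusted p = 0.00471) for sh72 and -1.08 ± 0.16 (adjusted p = 5.29e-06) for the difference. Its sh68 call ended without shSCR replicate 1 (0.42, adjusted p = 0.0550) or sh68 replicate 1 (0.41, adjusted p = 0.0535), and TICRR, on the opposite strand, covers 11.8% of its exon bases. KIF24 had 50.1, 49.3 and 49.2 CPM with shSCR, 53.6, 58.1 and 54.4 with sh68, and 44.2, 43.7 and 42.9 with sh72. It had 0.16 ± 0.046 (adjusted p = 0.00491) with sh68, -0.18 ± 0.047 (adjusted p = 0.00215) with sh72 and -0.34 ± 0.046 (adjusted p = 9.33e-07) for the difference.

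KIF9, a motor of moving cilia, had 4.67, 5.12 and 4.59 CPM with shSCR, 3.22, 4.56 and 3.78 with sh68, and 3.99, 3.29 and 3.28 with sh72. It was lower with each shRNA, at -0.31 ± 0.13 (adjusted p = 0.0473) and -0.44 ± 0.13 (adjusted p = 0.00816). The sh68 call ended without any single shSCR library, without sh68 replicate 1 (-0.19, adjusted p = 0.245) or sh68 replicate 3, and without sh72 replicate 2 or sh72 replicate 3 (lowest adjusted p = 0.0520), and with RLE scaling, library size alone, a minimum of 1 CPM in 3 libraries or DESeq2 (adjusted p from 0.0508 to 0.0904). Its call on the mean ended without shSCR replicate 2 (-0.32, adjusted p = 0.0566). KIF9-AS1, on the opposite strand, covers 14.9% of its exon bases. KIF27, a ciliary relative of KIF7, had 4.82, 4.85 and 6.31 CPM with shSCR, 5.71, 4.70 and 5.91 with sh68, and 3.47, 3.22 and 4.20 with sh72. KIF27 was lower with sh72 at -0.56 ± 0.14 (adjusted p = 0.00151), had 0.027 ± 0.13 (adjusted p = 0.872) with sh68 and differed by -0.58 ± 0.13 (adjusted p = 0.000699).

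Between the shRNAs themselves, 19 of 33 kinesins differed, 16 lower with sh72 than with sh68 and 3 higher (KIF1C, KIF23 and KIF3B). In all genes, 56.2% differed, 29% lower and 27.2% higher, so the total share of kinesins was close to that of all genes. By class, 5 mitotic members were lower and 1 higher, 7 transport members were lower and 2 higher, and 4 of 5 others were lower. The largest difference in the family was that of KIF13A, and the largest among mitotic kinesins that of KIF14.

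Of 2 further kinesins whose symbols do not start with KIF, CENPE, the motor that draws chromosomes to the metaphase plate, had 122 ± 2.56 CPM with shSCR, 123 ± 6.77 with sh68 and 116 ± 6.64 with sh72 and no call on the mean (-0.036 ± 0.04 (adjusted p = 0.465)). STARD9, which binds the material around centrosomes, rose, at 65.5 ± 2.88 CPM with shSCR, 135 ± 11.1 with sh68 and 93.7 ± 3.56 with sh72, with 1.04 ± 0.052 (adjusted p = 3.67e-14) for sh68 and 0.52 ± 0.053 (adjusted p = 1.67e-08) for sh72.

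Light chains, adaptors and associated proteins of transport kinesins moved both ways: of 24 tested, 10 were lower and 6 higher on the mean (median -0.060), 11 and 5 with sh68, and 6 and 7 with sh72. The share that was lower was 41.7% on the mean and 45.8% with sh68, beside 27.5% and 28.1% of all genes, while the 25% higher on the mean and the 25% lower and 29.2% higher with sh72 were close to the 24.9%, 26.3% and 24.7% of all genes. The largest passing changes by the naming rule were in genes barely read. FEZ1, an adaptor of KIF5, had 0.219 ± 0.0921 CPM with shSCR, 0.514 ± 0.0536 with sh68 and 1.18 ± 0.0171 with sh72, and HAP1, a huntingtin-associated adaptor, had 0.151 ± 0.0308 CPM with shSCR, 0.589 ± 0.201 with sh68 and 0.309 ± 0.0441 with sh72. Their log2 fold changes on the mean were 1.83 ± 0.30 (adjusted p = 2.07e-05) and 1.47 ± 0.39 (adjusted p = 0.00261). KLC4, a light chain chosen after its values were seen, fell at -0.53 ± 0.064 (adjusted p = 2.27e-07) with sh68 and -0.61 ± 0.065 (adjusted p = 3.77e-08) with sh72. KLC1, the light chain read most strongly, was lower with sh68 at -0.11 ± 0.035 (adjusted p = 0.0137). It had 0.043 ± 0.035 (adjusted p = 0.328) with sh72 and -0.031 ± 0.03 (adjusted p = 0.405) on the mean. For sh72 minus sh68, KLC1 had 0.15 ± 0.035 (adjusted p = 0.000911).

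Subunits of dynein and dynactin, the motor that walks the other way, were 9 higher and 6 lower of 23 tested on the mean (median 0.00042), or 39.1% and 26.1% beside 24.9% and 27.5% of all genes. DYNLRB1 and DYNLL2, light chains, rose most. DYNLRB1 had 22.0 ± 1.09 CPM with shSCR, 47.1 ± 0.926 with sh68 and 55.3 ± 3.38 with sh72 (1.22 ± 0.05 (adjusted p = 1.54e-15) on the mean), and DYNLL2 had 39.6 ± 1.08 CPM with shSCR, 74.5 ± 1.198 with sh68 and 72.6 ± 2.15 with sh72 (0.89 ± 0.04 (adjusted p = 7.57e-15)). Of 12 tubulin genes, the track on which kinesins walk, 4 were higher and 3 lower (median 0.043), or 33.3% and 25% beside the same 24.9% and 27.5%. TUBB6 had 1.52 ± 0.187 CPM with shSCR, 4.71 ± 0.428 with sh68 and 1.64 ± 0.255 with sh72 (0.87 ± 0.15 (adjusted p = 3.52e-05)), with sh72 minus sh68 at -1.52 ± 0.15 (adjusted p = 6.77e-09). TUBB3 fell with each shRNA, at 30.3 ± 2.74 CPM with shSCR, 19.0 ± 0.202 with sh68 and 17.6 ± 3.34 with sh72 (-0.72 ± 0.075 (adjusted p = 2.28e-08)). The main beta-tubulin gene TUBB was listed at 0.240 CPM in shSCR, and the reason was not tested.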

How the data were processed

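The authors deposited unnormalized counts of reads for each gene symbol, and all 9 libraries of the table were used. The submitters' processing notes name the genome hg38 and the tools CASAVA 1.8.2, featureCounts 1.5.2 and STAR 2.5.2. How they were set, strand and annotation included, is not given in the sources used here, so reads in exons shared with a gene on the other strand may be counted for either.

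All 9 libraries were fitted in 1 quasi-likelihood model of edgeR 4.0.16 (R 4.3.3), with a coefficient for each group, after filterByExpr (minimum count 10, minimum total 15) kept 15725 genes and TMM scaled the libraries. Benjamini-Hochberg adjusted p-values over all tested genes were called below 0.05. The SE is that of the fitted log2 fold change, and the common biological coefficient of variation was 0.0394. Data were simulated with few changed genes, 50 at each size, and with equal changes for both shRNAs. On these, the test of the mean of both shRNAs recovered 52% of 50 genes changed 1.2-fold and 92% of 50 changed 2-fold. It made 8 false calls among the unchanged of 15725 genes. In the real data 52.3% of genes were called on the mean and 56.2% differed between the shRNAs, so recovery and false calls there may differ. Replicate libraries differed beyond sampling noise (chi-square per degree of freedom from 2.63 to 7.15). Lists were described by counts, medians and summed CPM per library, with no test of a list, since the members and lists were chosen with earlier results of these data known. Exon lengths and overlaps come from GENCODE 29, positions and promoters from RefSeq (GRCh38.p14).

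By rule, values in every library were given for members that passed in the same direction with each shRNA, that passed in sh72 minus sh68 or that stood highest in their class, and from each other list the text names the 2 called genes that changed most on the mean, beside CENPE, STARD9, FOXM1, MYBL2, KIFAP3 and KDM1A. The titles of the samples number the LSD1 shRNAs, and as no label ties a number to a name, the names of the table were used. KIF2B, KIF12 and KIF19 were not analysed here. Alternatives were scaling by RLE or by library size alone, a filter of 1 CPM in 3 libraries or none, DESeq2 1.42.0, limma-voom (limma 3.58.1), a fit of only the compared groups, a replicate block, the 6 knockdown libraries as 1 group, a minimum fold change of 1.2, other class memberships (of these, leaving KIFC1 and KIF4B out was chosen after seeing the data), and each library left out in turn.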

Additional observations from a re-analysis of the deposited data

Results flagged for a closer look

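In 19 of 33 tested kinesins the effect of sh72 differed from that of sh68 by a test of the difference itself. Among all genes 56.2% did, so the total share of kinesins was close to that of all genes. By direction, 48.5% of kinesins were lower and 9.09% higher with sh72, beside 29% and 27.2% of all genes. Values are log2 fold changes of sh72 minus sh68 from the edgeR test, with adjusted p-values in brackets. They were higher with sh72 for KIF3B at 0.45 (2.25e-08), KIF23 at 0.23 (0.000272) and KIF1C at 0.17 (0.0027). Among mitotic kinesins they were lower for KIF14 at -0.79 (4.17e-10), KIF18A at -0.24 (0.000514), KIF20A at -0.19 (0.00179), KIF2C at -0.14 (0.0121) and KIF11 at -0.13 (0.0365). Among transport kinesins they were lower for KIF13A at -1.58 (4.98e-07), KIF3A at -0.51 (1.43e-07), KIF3C at -0.43 (0.000178), KIF1B at -0.36 (0.000666), KIFC2 at -0.27 (0.000494), KIF5C at -0.18 (0.0137) and KIF5B at -0.14 (0.00375). Among the others they were lower for KIF7 at -1.08 (5.29e-06), KIF27 at -0.58 (0.000699), KIF24 at -0.34 (9.33e-07) and KIF2A at -0.29 (2.55e-07). The calls of KIF11, KIF2C, KIF5B and KIF5C ended when single libraries were left out: for KIF2C without sh68 replicate 2, sh68 replicate 3 or sh72 replicate 2 (adjusted p from 0.0547 to 0.103), and for KIF11, KIF5B and KIF5C as given beside their values above. KDM1A itself was lower with sh72 than with sh68 by 0.23 on the log2 scale, and its part in these differences was not tested.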

How the results depend on the processing

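Of 68 calls of single kinesins across the comparisons, 44 held under every alternative run, 24 lost significance under at least 1 (69 of 1170 values), and 0 changed direction. On the mean of both shRNAs, 14 kinesins were called, 6 with the 6 knockdown libraries as 1 group and 5 with a minimum fold change of 1.2, which left 2 of the 6 mitotic kinesins that were lower. The 1 group form adds the difference between the shRNAs to the spread. The mitotic median on the mean, -0.15, was -0.12 with library size alone, -0.11 with limma-voom and -0.084 without KIF22, KIF4A and KIF4B. With sh68 it was -0.095 at a minimum of 1 CPM in 3 libraries (-0.12 where KIFC1 and KIF4B alone were left out), and ran from -0.15 to -0.10 with single libraries left out. With sh72 it was -0.12 with library size alone, -0.13 without KIF22, KIF4A and KIF4B, and -0.18 to -0.12 with single libraries left out. The cause of these shifts was not tested. The transport median on the mean ran from -0.056 to 0.0080 with single libraries left out. Among counts, leaving out 1 library gave 14 to 16 kinesins on the mean, 13 to 17 with sh68, 17 to 20 with sh72 and 17 to 20 for the difference. Calls were also gained. On the mean, KIF5B was called under 11 of 18 alternatives, KIF13B under 8, KIF27 under 4, KIF20B under 2 and KIF18B under 1. With sh72, KIF13B was called under 11 of 17, KIF1C under 5 and KIF3B, KIF5A, KIF6, KIF11 and KIF18B under 1 each. With sh68, KIF14 was called under 1, and for the difference KIF20B under 7, KIF21B under 2 and KIF15 and KIF5A under 1 each. The replicate numbers showed little sign of pairing libraries, since deviations of same-numbered libraries correlated at -0.036 to 0.072 over 9 pairs. With the replicate block, 18 kinesins were called on the mean, 17 with sh68, 20 with sh72 and 21 for the difference. KIFC1, KIF4B, KIFC3 and KIF21A had few reads, and their SEs in the report's comparisons are wide.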
